A study of Mus musculus with 13 samples.

Results

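The genes described here are 32 genes of glycolysis and glucose use, out of 40787 genes in the deposited table. They were taken by symbol from a fixed list that was chosen with earlier results of these data known. All 32 were found and matched to Ensembl gene IDs. They comprise 2 glucose transporters, 2 monocarboxylate transporters, 15 enzymes from hexokinase to pyruvate kinase, 2 lactate dehydrogenases, 4 bifunctional enzymes of the PFKFB family, 4 pyruvate dehydrogenase kinases, Pdha1, Hif1a and Egln3. Expression was measured by RNA sequencing of 13 sciatic nerves, 1 library per nerve. All mice carried floxed alleles of Rptor, which encodes the mTORC1 subunit Raptor, and all received tamoxifen at 2 months of age. Controls lacked Cre. RaptorKOs carried a tamoxifen-inducible Cre that is expressed in SCs. One sciatic nerve was crushed 2 months later, and at 5 dpc the injured nerve distal to the crush and the contralateral nerve were taken. There were 3 injured and 3 contralateral nerves of controls, and 3 injured and 4 contralateral nerves of RaptorKOs. Whole nerves without epineurium were used, so each value sums over SCs and the other cells of the nerve, and fewer cells of a type cannot be told apart from less RNA per cell. Crushed and contralateral nerves of 1 genotype share numbers and are probably from the same mice, although no source used here says that equal numbers mark 1 mouse.

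Library totals ranged from 8200458 to 13581775 counts. Levels are counts per 1000000 counts of a library (CPM) after TMM scaling. Levels of different genes are compared per kilobase of exon unless CPM is named. This length covers all annotated exons of a gene, so it can exceed that of its main transcript. Genes that reached 50 counts in at least 2 libraries of a comparison entered the quasi-likelihood test, which edgeR provides. A call required more than a 1.2-fold difference and a Benjamini-Hochberg adjusted p under 0.05. Rptor itself was at 43.7 to 52.5 CPM in contralateral controls and 22.1 to 28.0 CPM in contralateral RaptorKOs, and at 35 to 48.6 and 23.2 to 28.6 CPM in injured nerves, so its groups did not overlap on either side. The summed level of 8 myelinating SC markers, led by Mbp, Pmp22 and Prx, was 54317 to 59693 CPM in contralateral controls and 47279 to 57132 CPM in contralateral RaptorKOs. Skeletal muscle markers, led by Tnnt3, Pvalb and Tnni2, summed to at most 28.8 CPM in any library. Both control libraries numbered 3 held Xist and few Y-linked counts, unlike the other 11.

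Glycolysis splits glucose into pyruvate. Pyruvate is then either reduced to lactate by lactate dehydrogenase or taken into mitochondria and oxidized by the pyruvate dehydrogenase complex, which the PDK kinases inhibit. Several steps exist as isoforms with different kinetics and tissue preferences, such as the Ldha and Ldhb subunits, and HIF1A, MYC and mTORC1 signaling are known to raise the transcription of many genes of the pathway. In nerves, SCs are known to metabolize glucose and to export lactate through monocarboxylate transporters.

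To show the genes' regulatory sequence, promoters were taken from RefSeq (GRCm38.p6), which held windows for 31 of the 32 genes. The 250 bases before each start were searched for ACGTG on both strands, the core of the element bound by HIF1A. It is contained in CACGTG, an E-box of MYC and related factors, and such an E-box counts as 2 matches. Of the 31 genes, 16 had a match in at least 1 window, against 18.5% of all genes with windows. A match was held by 20 of the 50 windows of the 31 genes, where the share was 16.6% over all 32851 windows in the table. CACGTG was found in 7 of the 50 windows and in 6.0% of all windows. Stretches are shown for 5 genes with matches that rose after injury, chosen after their values were seen, with the match capitalized.
Hk2, chr6:82774462-82774546, minus strand: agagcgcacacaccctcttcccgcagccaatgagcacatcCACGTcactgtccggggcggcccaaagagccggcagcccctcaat
Pgk1, chrX:106186929-106187013, plus strand: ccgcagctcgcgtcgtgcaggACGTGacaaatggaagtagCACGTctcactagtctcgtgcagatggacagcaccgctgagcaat
Pgam1, chr19:41911717-41911801, plus strand: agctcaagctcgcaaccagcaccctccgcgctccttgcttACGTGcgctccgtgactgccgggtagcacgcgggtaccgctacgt
Ldha, chr7:46845730-46845803, plus strand: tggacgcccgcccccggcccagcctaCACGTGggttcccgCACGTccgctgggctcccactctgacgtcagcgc
Slc16a3, chr11:120949013-120949066, plus strand: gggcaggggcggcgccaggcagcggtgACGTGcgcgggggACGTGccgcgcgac
The Ldha stretch holds an E-box and a further match, and the Slc16a3 stretch holds a pair of matches close to the start. For the windows of the Ldha and Pgam1 stretches, bases just after the start were not found in an annotated transcript. For the other stretches they were found. They were also found for another Ldha window, chr7:46846832-46847131, which held no match. Matches were not particular to rising genes. Of the genes with windows, 7 of 12 that rose with injury in controls had a match, and so did 6 of 11 that fell, namely Pfkm, Pdk2, Slc16a1, Slc2a1, Aldoa and Egln3. Over all genes with windows the share was 18.5%. The windows of Pfkfb4, which rose, and of Pdk4 and Ldhb, which fell, held none.

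In contralateral control nerves, Ldhb had the highest level per kilobase of the 32 genes, at 383 ± 7.12 CPM per kb (SD, n = 3). Gapdh, the dehydrogenase in the middle of the pathway, followed at 231 ± 8.44 and the aldolase Aldoa at 216 ± 14.5 CPM per kb, and these 2 overlapped within their SDs. Slc2a1, the glucose transporter GLUT1, stood at 82.2 ± 9.46, the pyruvate kinase gene Pkm at 68.6 ± 3.10 and Ldha at 25.5 ± 2.17 CPM per kb. Pgam1, Gpi1 and Pgk1 lay together between 37.5 and 38.9 CPM per kb. The lowest was the monocarboxylate transporter Slc16a3 at 0.138 ± 0.0461 CPM per kb. In CPM without length, Gapdh at 954 ± 34.9 was above Ldhb at 601 ± 11.2, so the order depends on the exon lengths used. In injured controls the order per kilobase differed. Gapdh was highest at 364 ± 33.5 CPM per kb, followed by Aldoa at 141 ± 11.2, Pkm at 110 ± 12.7 and Ldhb at 101 ± 11.2 CPM per kb, and the last 2 overlapped within their SDs.

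The injury comparison asked how the crush changed these genes at 5 dpc. In controls, 24 of the 31 genes tested passed, and isoforms of some steps moved in opposite directions. Hk2, Pfkp, Slc2a3, Slc16a3 and Ldha rose, whereas Hk1, Pfkm, Slc2a1, Slc16a1 and Ldhb fell. Other called isoforms moved the same way, as Aldoa and Aldoc fell, and so did Pdk1, Pdk2 and Pdk4. Pfkfb4 rose and was the only gene of its family called. Altogether 13 genes rose and 11 fell, against 32.4% of all tested genes that rose and 32.9% that fell. The median log2 fold change was 0.28 over the 31 genes and -0.00 over all tested genes. In RaptorKOs, 14 of 30 rose and 11 fell, with 30.5% and 28.5% of all genes, and medians of 0.18 and 0.03. Injured and contralateral libraries did not overlap for 14 higher and 13 lower genes in controls, against 36.2% and 34.7% of all tested genes. In RaptorKOs these were 13 and 11, against 31.7% and 28.8%.

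**Figure D1:**
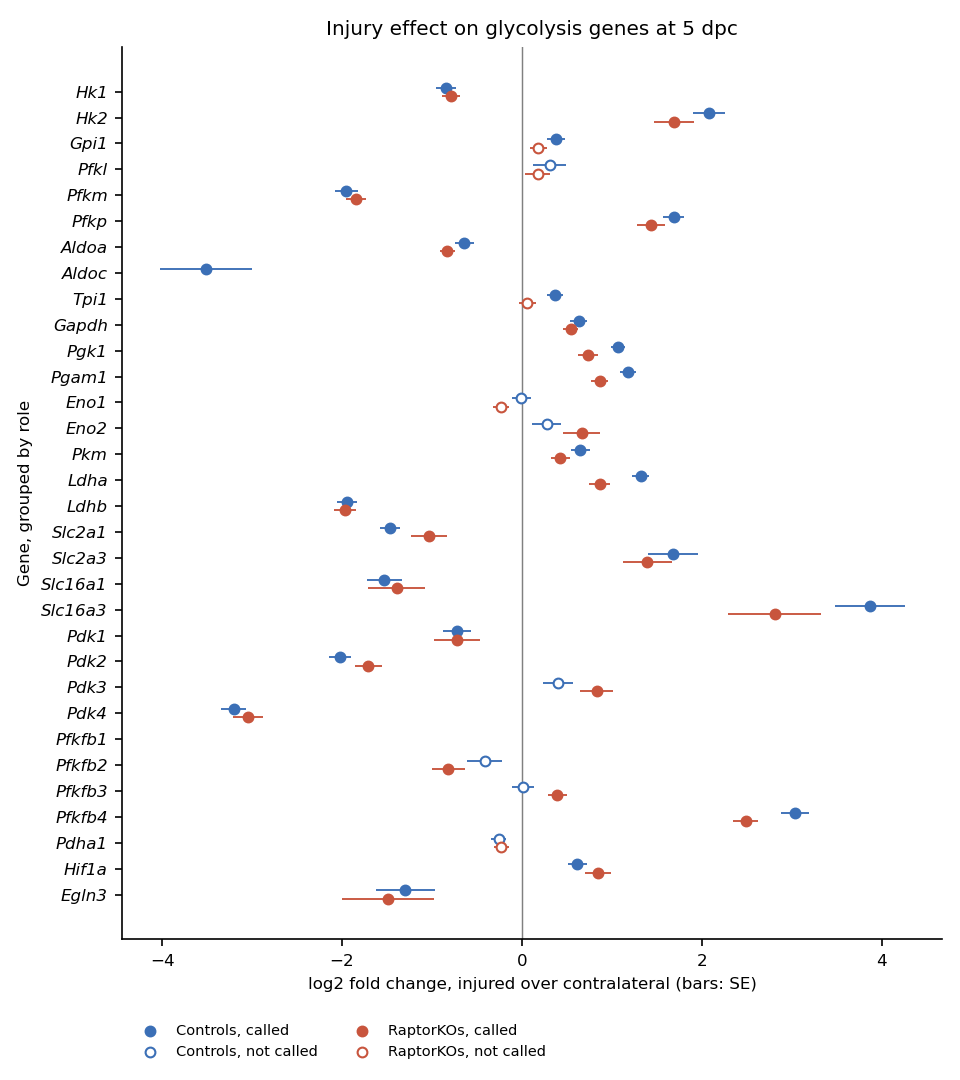
Log2 fold change of each gene, injured over contralateral, in controls (blue) and RaptorKOs (red), with bars for the standard error, filled circles for called genes and genes grouped by role on the vertical axis. Slc16a3 (3.87) and Pfkfb4 (3.03) are farthest right in controls, Aldoc (-3.52) and Pdk4 (-3.21) are farthest left, and Pfkfb1 was not tested.

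Slc16a3 encodes MCT4, a transporter known for lactate export from glycolytic cells. It was at 0.728, 0.979 and 0.488 CPM in the contralateral controls and at 11.1, 14.3 and 8.13 CPM in the injured ones. All injured libraries were far above all contralateral ones, which held only 5 to 12 counts each. The log2 fold change was 3.87 (SE 0.39, adjusted p = 1.86e-06, edgeR quasi-likelihood). In RaptorKOs it went from 0.960, 1.91, 0.477 and 0.258 CPM to 7.46, 6.13 and 6.77 CPM, a log2 fold change of 2.81 (SE 0.52, adjusted p = 0.000684).

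Pfkfb4 makes fructose 2,6-bisphosphate, the activator of phosphofructokinase. It rose from 10.2, 9.38 and 12 CPM in contralateral controls to 76.5, 106 and 79.7 CPM in injured controls (log2 fold change 3.03, SE 0.15, adjusted p = 9.18e-09, edgeR quasi-likelihood). In RaptorKOs it went from 12.1, 15.6, 12.1 and 11.6 CPM to 70.6, 81.1 and 65.9 CPM, a log2 fold change of 2.49. Its relatives behaved otherwise. Pfkfb3 was at 34.8 to 43.5 CPM in contralateral and 37.6 to 40.3 CPM in injured controls and passed only in RaptorKOs (0.39), and Pfkfb2 fell there (-0.82). The interaction of genotype and injury was not called for either. Pfkfb1 held 13 to 47 counts per library and was not tested.

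Hk2, a hexokinase that is inducible in many tissues, rose from 6.92, 7.01 and 8.40 CPM to 38.9, 28.1 and 29.2 CPM in controls (log2 fold change 2.08, SE 0.18, adjusted p = 7.34e-07, edgeR quasi-likelihood). In RaptorKOs it was at 8.85, 6.56, 11.4 and 7.99 CPM in contralateral and 28.0, 21.3 and 35.3 CPM in injured nerves. Injured and contralateral libraries did not overlap in either genotype. Hk1, the constitutive hexokinase, fell from 204.5 to 209 CPM in contralateral controls to 104 to 139 CPM in injured ones (-0.84), and remained the more abundant of both per kilobase.

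Phosphofructokinase, the committed step, has 3 subunit genes. Pfkp, the platelet type, went from 23.6, 24.6 and 31.3 CPM to 91.8, 79.5 and 88.7 CPM in controls (log2 fold change 1.69, SE 0.12, adjusted p = 1.81e-07, edgeR quasi-likelihood) and from 26.7, 29.2, 34.1 and 20.5 CPM to 73.3, 71.0 and 81.5 CPM in RaptorKOs (1.44). Pfkm, the muscle type, went the other way, from 59.9, 56.9 and 60.0 CPM to 14.8, 17.8 and 13.8 CPM in controls (log2 fold change -1.95, SE 0.13, adjusted p = 7.58e-08) and from 58.1, 56.6, 50.4 and 55.2 CPM to 15, 15.5 and 15.7 CPM in RaptorKOs (-1.84). Each of the 4 sets of injured libraries stood clear of its contralateral set. Pfkl, the liver type, was at 25.8 to 37.5 CPM and 33.3 to 51.7 CPM in controls and was not called in either genotype. Pfkm overlaps Senp1 on the other strand.

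Of the 9 genes from triose phosphate to lactate, 6 rose in controls and Ldhb fell. Gapdh, often used as a reference gene, was at 989, 956 and 919 CPM in contralateral and 1542, 1618 and 1349.5 CPM in injured controls, without overlap. It rose by a log2 fold change of 0.63 (SE 0.10, adjusted p = 0.000134, edgeR quasi-likelihood), and by 0.54 in RaptorKOs, where it was at 963 to 1033 and 1374 to 1531 CPM. Ldha (1.32), Pgam1 (1.18), Pgk1 (1.07) and Pkm (0.65) rose in controls and also in RaptorKOs (0.86, 0.86, 0.74 and 0.43). Ldhb went from 592 to 614 CPM in contralateral controls to 140.5 to 175 CPM in injured ones, a log2 fold change of -1.94, with -1.97 in RaptorKOs. Tpi1 (0.37) passed in controls, with 0.06 in RaptorKOs. Eno1 was -0.00 and -0.23, and was called in RaptorKOs with the nerve number as a block (-0.28, adjusted p = 0.0288, edgeR quasi-likelihood). Eno2, an enolase known from neurons, was 0.28 and 0.66, passing only in RaptorKOs. Of the steps before triose phosphate, Gpi1 passed in controls (0.38, with 0.18 in RaptorKOs) and Aldoa fell in both (-0.64 and -0.83).

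Aldoc, the brain-type aldolase, fell from 4.91, 7.50 and 7.81 CPM in contralateral controls to 1.10, 0.367 and 0.294 CPM in injured controls, where it held 3 to 12 counts (log2 fold change -3.52, SE 0.51, adjusted p = 4.54e-05, edgeR quasi-likelihood). Aldoc entered this test only through the contralateral controls, which held 54 to 92 counts. In RaptorKOs it was at 2.88, 3.82, 2.57 and 3.22 CPM and at 0.178, 0.0786 and 0.915 CPM, and was not tested because too few libraries reached 50 counts.

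Pdk4 and Pdk2, kinases that switch off pyruvate dehydrogenase, were among the strongest falls. Pdk4 went from 99.3, 81.1 and 99.3 CPM to 12.2, 9.72 and 8.81 CPM in controls (log2 fold change -3.21, SE 0.14, adjusted p = 2.36e-09, edgeR quasi-likelihood) and from 50.6, 43.7, 51.9 and 55.3 CPM to 4.62, 6.52 and 7.22 CPM in RaptorKOs (-3.04). Pdk2 went from 99.7, 96.3 and 89.1 CPM to 23.4, 28.3 and 19.7 CPM in controls (log2 fold change -2.02, SE 0.13, adjusted p = 5.06e-08) and from 52.5, 65.3, 57.7 and 74.6 CPM to 17.1, 22 and 18.4 CPM in RaptorKOs (-1.71). For both genes the lowest contralateral library was above the highest injured one. Pdk1 fell less (-0.73 in each genotype). Pdk3 had log2 fold changes of 0.40 and 0.83 and passed in RaptorKOs. Pdha1, the complex's catalytic subunit, was -0.26 and -0.23, at 103 to 137 CPM over all libraries, and was not called because its fold change lay below 1.2.

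Slc2a1 and Slc16a1, which encodes the lactate transporter MCT1, fell in both genotypes. Slc2a1 was at 309, 249.9 and 306 CPM in contralateral and 96.9, 109.6 and 112 CPM in injured controls (log2 fold change -1.46, SE 0.11, adjusted p = 2.78e-07, edgeR quasi-likelihood). Slc16a1 was at 72.7, 65.0 and 95.5 CPM and at 22.8, 22.7 and 36.7 CPM (-1.53, SE 0.19, adjusted p = 2.66e-05). In RaptorKOs the log2 fold changes were -1.03 and -1.39. The contralateral libraries were above the injured ones in each case, but RaptorKO contralateral 3 stood out at 472 CPM of Slc2a1 and 135 CPM of Slc16a1, whereas the other 3 lay at 242 to 325 and 46.2 to 90.7 CPM. That library also held the most adipocyte marker counts, led by Plin4, Fabp4 and Adipoq, with a sum of 413 CPM against 64.6 to 137 CPM in the other contralateral nerves, and the most perineurial and fibroblast marker counts, with 8763 CPM. Their part in these values was not tested. Slc2a3, which encodes GLUT3, was low but rose in both genotypes (1.68 and 1.39), from 3.0 to 5.27 CPM to 12 to 19.0 CPM in controls.

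Hif1a, which encodes the oxygen-regulated subunit of HIF1, was at 94.0, 111 and 114 CPM in contralateral and 192, 156 and 151 CPM in injured controls, a log2 fold change of 0.62 (SE 0.11, adjusted p = 0.000326, edgeR quasi-likelihood). In RaptorKOs it was at 104, 90.4, 78.5 and 84.7 CPM and at 151, 132 and 201 CPM (0.85). All injured libraries were above all contralateral ones. Egln3, a prolyl hydroxylase that marks HIF proteins for degradation, fell in both (-1.30 and -1.49), at levels of 1.33 to 9.43 CPM. It entered these tests through contralateral libraries, as injured ones held 21 to 30 counts in controls and 15 to 51 in RaptorKOs.

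The cell composition of the libraries moved with injury. The 10 macrophage markers, led by Lyz2, C1qa and Cd68, were called higher in both genotypes, with sums of 164 to 187 CPM in contralateral and 2800 to 3467 CPM in injured controls, and 267 to 335 and 1876 to 3822 CPM in RaptorKOs. The 10 cell cycle markers, led by Mki67, Pcna and Top2a, were also called higher in both, and summed to 71.6 to 86.2 CPM and 1797 to 1987 CPM in controls. Neutrophil markers, led by Csf3r, summed to at most 4.16 CPM in contralateral and 24.5 to 53.4 CPM in injured nerves. Myelinating SC markers, of which 8 of 8 fell in both genotypes, dropped to 1230 to 1580 CPM in controls and 1207 to 1557 CPM in RaptorKOs. Endothelial markers were lower for 5 of 7 genes in injured controls, with sums of 464 to 509 CPM in contralateral and 250.4 to 377 CPM in injured nerves, and 2 were lower and 2 higher in RaptorKOs. Perineurial and fibroblast markers were lower for 5 of 7 in each genotype and higher for 1. Erythrocyte markers were lower for 3 of 3 tested in controls and 4 of 4 in RaptorKOs. Of the 6 SC lineage markers 3 rose and 2 fell in each genotype. Their part in the changes of the glycolysis genes was not tested.

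Because both isoforms of a step are measured in the same library, their ratio does not depend on the scaling between libraries. Of the ratios per kilobase, 6 could be compared between injured and contralateral nerves without overlap in each genotype. Hk2/Hk1 was 0.0472, 0.0484 and 0.0587 in contralateral controls and 0.399, 0.368 and 0.401 in injured ones. Pfkm/Pfkl went from 3.36, 4.41 and 3.20 to 0.753, 0.687 and 0.83, so that the muscle type no longer exceeded the liver type per kilobase. Ldhb/Ldha fell from 14.5, 17.0 and 13.9 to 1.40, 1.63 and 1.67 in controls, and from 7.63, 7.93, 6.24 and 9.0 to 1.06, 1.32 and 0.865 in RaptorKOs. Per kilobase, Ldhb thus exceeded Ldha in all libraries except RaptorKO injured 3. In CPM, Ldha was above Ldhb in injured nerves, with means of 214 and 159 in controls and 193 and 98.0 in RaptorKOs. Which subunit mRNA was more abundant after injury therefore depends on the exon lengths used. Pfkp/Pfkl and Slc2a3/Slc2a1 rose in the same way, by 1.39 and 3.16 on the log2 scale in controls, and Pdk4/Pdk2 was lower by a log2 difference of -1.18. Eno2/Eno1 overlapped in both genotypes. With 3 against 3 libraries the two-sided exact permutation test cannot go below 0.1, and with 3 against 4 it cannot go below 0.0286. All 6 ratios reached these limits, and after adjustment over 30 comparisons no p was below 0.107.

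**Figure D2:**
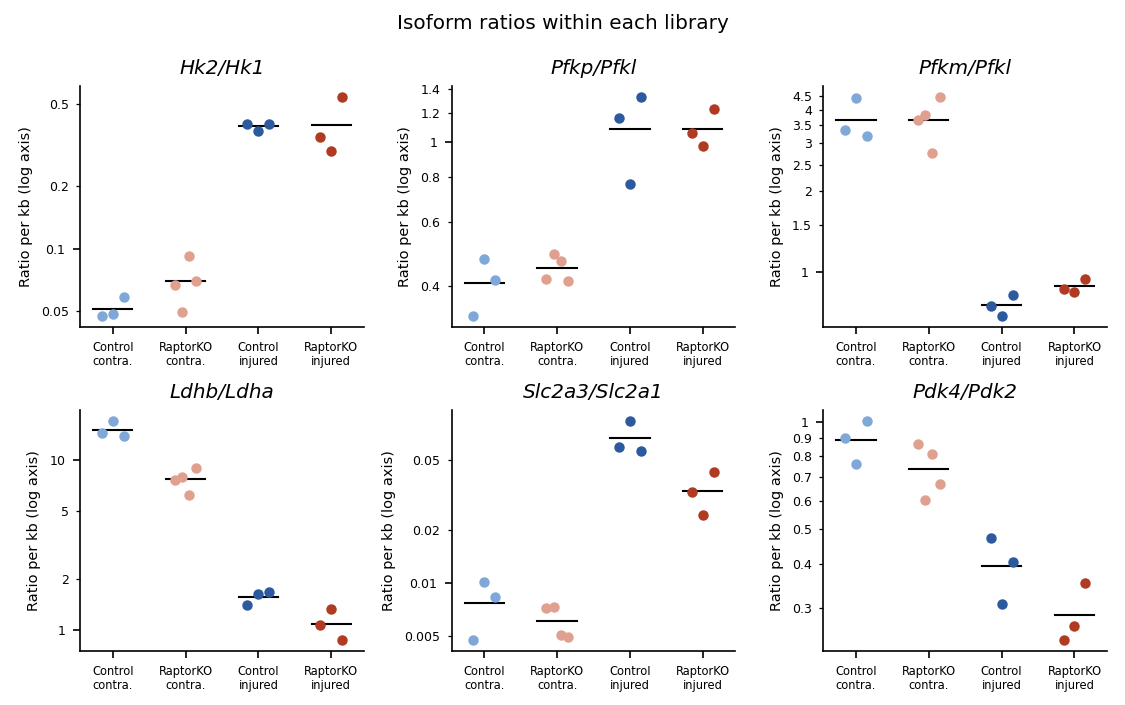
Ratio of counts per kilobase of 2 isoforms in each library, on logarithmic axes, with 1 point per library, a line at the group mean and groups in the order control and RaptorKO contralateral, then control and RaptorKO injured. Ldhb/Ldha lies at 13.9 to 17.0 in contralateral controls, 6.24 to 9.0 in contralateral RaptorKOs, 1.40 to 1.67 in injured controls and 0.865 to 1.32 in injured RaptorKOs.

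The genotype comparison in contralateral nerves asked what loss of Raptor in SCs changed without a crush. Of 30 genes tested, Gpi1 was higher and Pdk4, Ldhb, Pdk2 and Aldoc were lower in RaptorKOs, that is 1 higher and 4 lower, where 4.49% and 5.68% of all tested genes were called. The median was 0.01 for these genes and 0.01 for all. Groups did not overlap for 2 genes that were higher and 6 that were lower, against 9.93% and 13.7% of all tested genes. None of the enzymes of the pathway's lower part from Tpi1 to Pkm was called, with log2 fold changes from -0.38 for Eno2 to 0.10 for Pkm. Eno2 was the 1 of them with an unadjusted p below 0.05, against 24.9% of all tested genes.

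**Figure D3:**
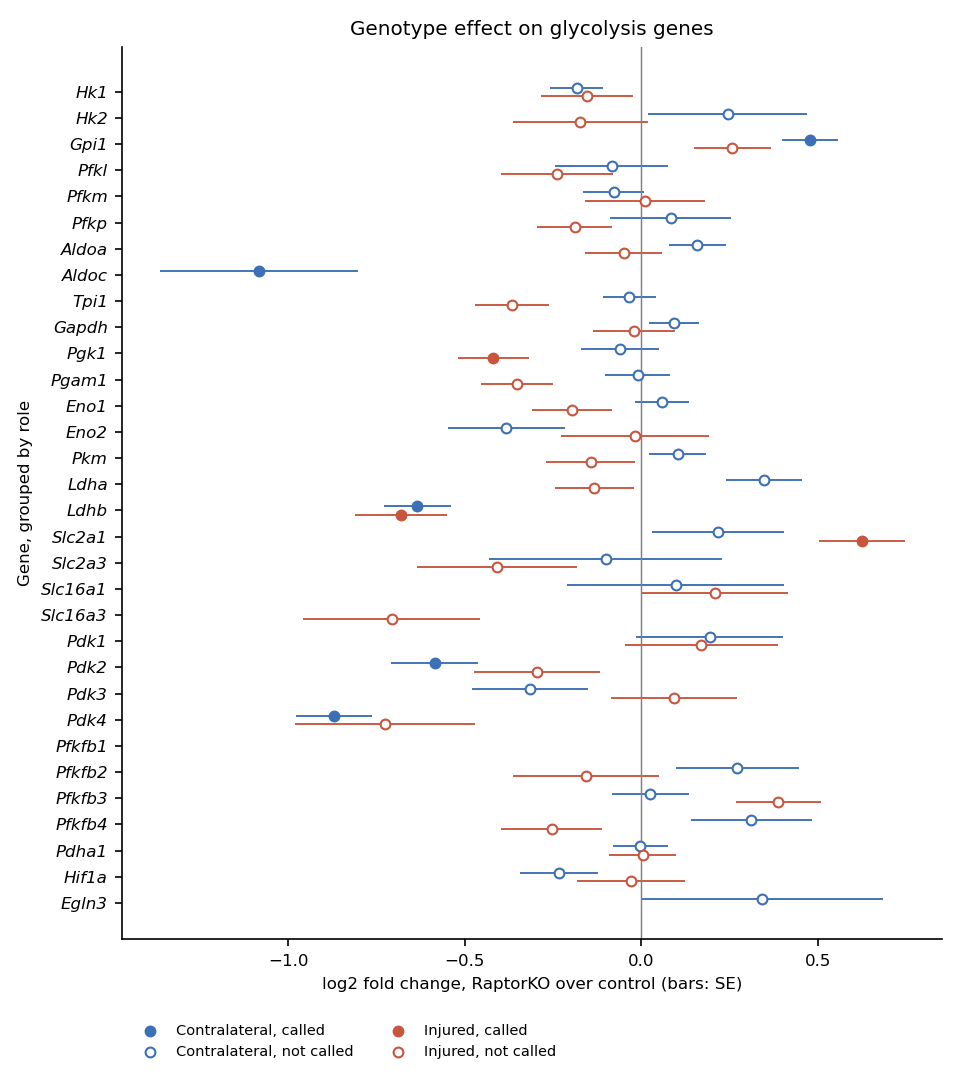
Log2 fold change of each gene, RaptorKO over control, in contralateral (blue) and injured nerves (red), with bars for the standard error, filled circles for called genes and genes grouped by role on the vertical axis. Ldhb is called on both sides (-0.63 and -0.68), Slc2a1 (0.62) and Pgk1 (-0.42) in injured nerves, and Gpi1 (0.48), Pdk4 (-0.87), Pdk2 (-0.59) and Aldoc (-1.08) in contralateral nerves.

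Ldhb (chromosome 6, 142490249 to 142507957, GRCm38), the subunit known to favor conversion of lactate to pyruvate, was at 598, 614 and 592 CPM in contralateral controls and at 365, 439.5, 341 and 383 CPM in contralateral RaptorKOs. No RaptorKO library reached the lowest control. The log2 fold change was -0.63 (SE 0.09, adjusted p = 0.00216, edgeR quasi-likelihood). Ldha, the other subunit, was at 87.1, 76.1 and 89.6 CPM and at 101, 117, 115 and 89.7 CPM. Its log2 fold change of 0.35 was not called (adjusted p = 0.0729, edgeR quasi-likelihood) but passed with DESeq2. It also passed with a replicate block, which between genotypes joins different mice by number. The ratio Ldhb/Ldha was 15.1 ± 1.64 (SD, n = 3) in controls and 7.70 ± 1.14 (n = 4) in RaptorKOs, without overlap (exact permutation p = 0.0286, adjusted p = 0.107).

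Pdk4 (chromosome 6, 5483351 to 5496309) was at 99.3, 81.1 and 99.3 CPM in contralateral controls against 50.6, 43.7, 51.9 and 55.3 CPM in RaptorKOs, which were all lower. The log2 fold change was -0.87 (SE 0.11, adjusted p = 0.000685, edgeR quasi-likelihood). Pdk2 (chromosome 11, 95026258 to 95041354) was at 99.7, 96.3 and 89.1 CPM against 52.5, 65.3, 57.7 and 74.6 CPM, again without overlap (-0.59, SE 0.12, adjusted p = 0.0139). The call of Pdk2 was lost without control contralateral 1 (adjusted p = 0.0649) or 2 (adjusted p = 0.0644). Pdk1 (0.19) and Pdk3 (-0.31) were not called. The ratio Pdk4/Pdk2 overlapped between genotypes, at 0.886 ± 0.123 and 0.738 ± 0.123.

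Gpi1 (chromosome 7, 34201330 to 34230336), the isomerase that follows hexokinase, was the 1 gene called higher. It was at 262, 230.1 and 238 CPM in contralateral controls and at 327, 358, 334 and 318 CPM in RaptorKOs. The lowest RaptorKO library was above the highest control (log2 fold change 0.48, SE 0.08, adjusted p = 0.00453, edgeR quasi-likelihood). In injured controls Gpi1 was at 315, 343 and 308 CPM, and in injured RaptorKOs at 404, 389 and 349 CPM, also without overlap, but was not called (0.26, adjusted p = 0.201). It overlaps Gm26762 on the other strand.

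Aldoc (chromosome 11, 78322968 to 78327781), at the levels given above, had a log2 fold change of -1.08 (SE 0.28, adjusted p = 0.0349, edgeR quasi-likelihood) on 25 to 92 counts per library. Aldoc entered the test through the controls, with 54 to 92 counts, against 25 to 50 in RaptorKOs. Its call was lost in 5 of 14 alternatives, among them the fit of all 13 libraries (adjusted p = 0.149) and those without control contralateral 2 or 3 or RaptorKO contralateral 1 or 3. Aldoc/Aldoa was 0.00970 ± 0.00281 in controls and 0.00402 ± 0.000520 in RaptorKOs, without overlap (exact permutation p = 0.0286).

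Markers of other cells differed between contralateral genotypes as well. Of 8 macrophage markers tested, 5 were higher in RaptorKOs (median 0.84), as were 3 of 7 perineurial and fibroblast markers, led by Dcn, Col1a1 and Lum, with sums of 3995 to 4739 CPM in controls and 6216 to 8763 CPM in RaptorKOs. Of 6 SC lineage markers, led by Ngfr, Sox10 and S100b, 1 was higher and 2 were lower, and their sums did not overlap (1862 to 1891 CPM in controls, 1130 to 1394 CPM in RaptorKOs). Of the 8 myelinating SC markers, 1 was higher and 1 was lower, with a median of -0.15. Their part in the lower Ldhb, Pdk2, Pdk4 and Aldoc was not tested.

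In injured nerves the genotype comparison asked whether RaptorKO nerves reached the injury levels of controls. Slc2a1 was higher and Ldhb and Pgk1 were lower, 1 and 2 of 29 genes tested, where 4.09% and 4.44% of all genes were called. Of the 29 log2 fold changes, 21 lay below 0, with a median of -0.15 against 0.00 over all tested genes. Most of these shifts were small. Groups did not overlap for 3 of the 29 genes that were higher and 6 that were lower, against 11.7% and 14.6% of all tested genes. DESeq2 and the exact test of edgeR, which the study used, each called 4 genes lower, adding Tpi1 and Pgam1.

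**Figure D4:**
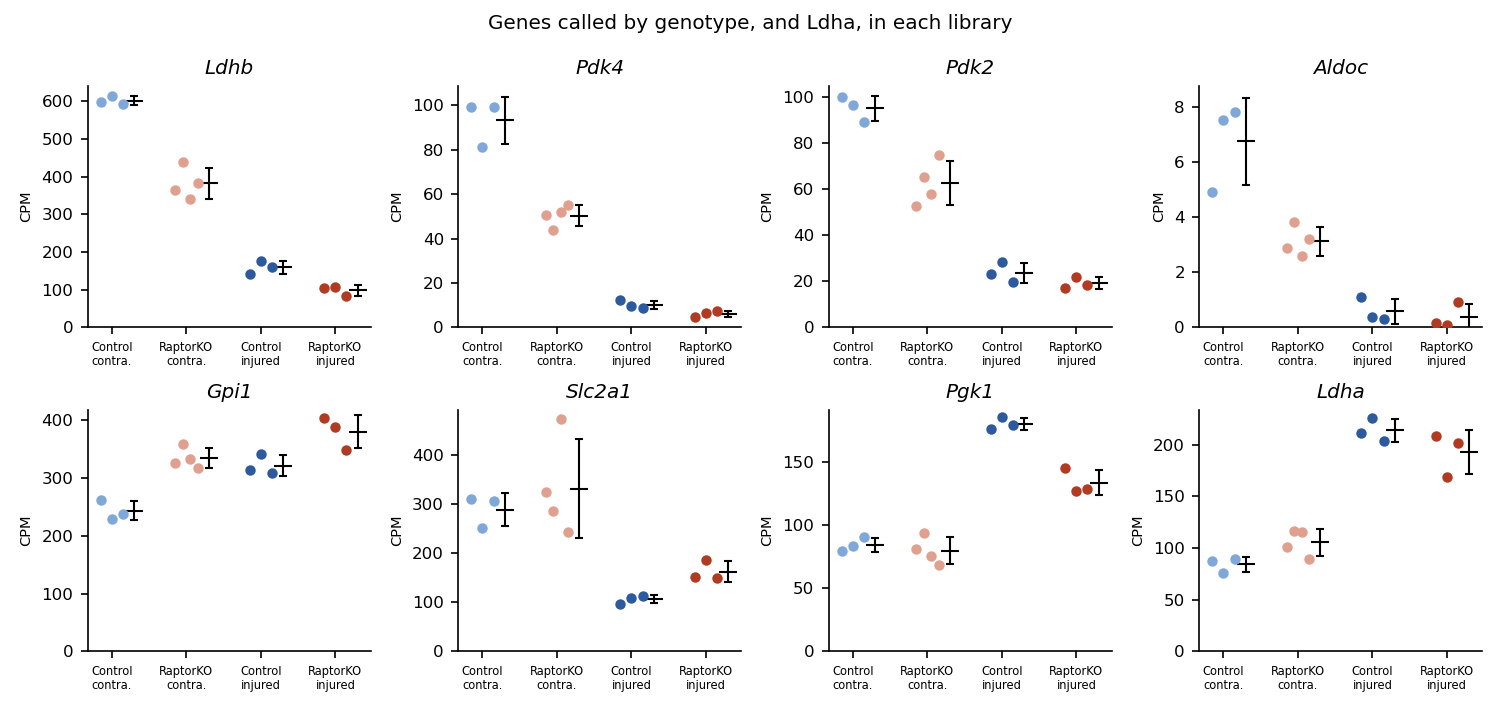
CPM of 7 genes called by genotype and of Ldha in each library, with 1 point per nerve, the mean and SD beside each group, and axes from 0, where the lower bar of Aldoc ends. Contralateral controls are above contralateral RaptorKOs in Ldhb, Pdk4, Pdk2 and Aldoc, and injured controls are above injured RaptorKOs in Ldhb, Pdk4 and Pgk1.

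Ldhb was at 140.5, 175 and 161 CPM in injured controls and at 105, 106 and 82.6 CPM in injured RaptorKOs, which were all lower (log2 fold change -0.68, SE 0.13, adjusted p = 0.00933, edgeR quasi-likelihood). The adjusted p was 0.0519 without control injured 2. The ratio Ldhb/Ldha was 1.57 ± 0.147 and 1.08 ± 0.230 (SD, n = 3 each), without overlap (exact permutation p = 0.1, the smallest possible). Ldha was at 212, 226 and 204 CPM and at 209, 169 and 201 CPM and was not called (-0.13).

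Pgk1 (chromosome X, 106187100 to 106203699), the first enzyme of the pathway to yield ATP, was at 176, 185 and 179 CPM in injured controls and 145, 127 and 128 CPM in injured RaptorKOs. Contralateral controls were at 79.4, 83.2 and 90.2 CPM and contralateral RaptorKOs at 81.1, 93.6, 75.4 and 68.6 CPM, which overlapped. The injured groups did not overlap (log2 fold change -0.42, SE 0.10, adjusted p = 0.0253, edgeR quasi-likelihood). The call was lost in 6 of 13 alternatives, with adjusted p from 0.0554 to 0.108 (edgeR quasi-likelihood). These were the fits without control injured 1, 2 or 3, without RaptorKO injured 2 or 3, and with a replicate block. The block joins different mice here. For this X-linked gene the injured control numbered 3 lay between the other 2 injured controls.

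Pgam1, the step after Pgk1, and Tpi1, which acts before Gapdh, lay just above the threshold. Pgam1 was at 177, 193 and 164 CPM in injured controls and 143, 132 and 138 CPM in injured RaptorKOs (-0.35, adjusted p = 0.0553, edgeR quasi-likelihood). Tpi1 was at 191, 213 and 201 CPM and at 168, 154 and 143 CPM (-0.37, adjusted p = 0.0567). Both groups stood apart. Tpi1 overlaps Spsb2 on the other strand, and RSEM may have divided reads of glycolytic genes with their processed pseudogenes. Pdk4 (-0.73, adjusted p = 0.113) and Slc16a3 (-0.71, adjusted p = 0.116) also did not overlap and were not called. Pfkfb3 was higher without overlap, at 46.1 to 55.1 CPM against 37.6 to 40.3 CPM in controls, and was not called either (0.39, adjusted p = 0.0751). Pdk4 and Pfkfb3 passed with all 13 libraries in 1 fit (adjusted p = 0.0150 and 0.0446, edgeR quasi-likelihood).

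Slc2a1 (chromosome 4, 119108711 to 119137983) was at 96.9, 109.6 and 112 CPM in injured controls and at 152, 186 and 149 CPM in injured RaptorKOs, all of them higher (log2 fold change 0.62, SE 0.12, adjusted p = 0.0102, edgeR quasi-likelihood). With all 13 libraries in 1 fit the adjusted p was 0.0532. In contralateral nerves the groups overlapped (0.22, adjusted p = 0.529). GLUT1 is also known from blood vessels of the nerve and from perineurium. Markers of endothelial cells, of erythrocytes, and of perineurial cells and fibroblasts together moved alongside. Endothelial markers were called higher in injured RaptorKOs for 6 of 7 genes, led by Pecam1, Cdh5 and Cldn5, with sums of 250.4 to 377 CPM in controls and 449 to 704 CPM in RaptorKOs. Erythrocyte markers, led by the hemoglobin genes Hbb-bs, Hba-a2 and Hba-a1, passed for 3 of 3 tested (5.94 to 24.8 and 46.3 to 75.4 CPM), and perineurial and fibroblast markers for 2 of 5 (3271 to 5006 and 4661 to 7387 CPM). The last list, led by Dcn, Col1a1 and Lum, does not tell perineurial cells from fibroblasts. Among injured nerves, RaptorKO injured 2 had the highest values of Slc2a1, of the endothelial sum and of the erythrocyte sum. Its perineurial and fibroblast sum of 4661 CPM was the lowest of the injured RaptorKOs and below the 5006 CPM of control injured 1. The part of these cells in the higher Slc2a1 was not tested. The ratio Slc2a3/Slc2a1 was 0.0598, 0.0838 and 0.0564 in injured controls and 0.0328, 0.0245 and 0.0429 in injured RaptorKOs, without overlap (exact permutation p = 0.1, the smallest possible).

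Cell cycle markers were lower in injured RaptorKOs for 8 of 10 genes, with sums of 1076 to 1210 CPM against 1797 to 1987 CPM in controls, and none of 10 macrophage markers was called by edgeR or had an unadjusted p below 0.05. All 6 SC lineage markers lay below 0, with a median of -0.29 and 1 called lower, and their sums did not overlap, at 2762 to 3027 CPM in controls and 2022 to 2678 CPM in RaptorKOs. The part of these cells in the lower Pgk1 and Ldhb was not tested.

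The interaction tested whether the injury response itself differed between genotypes. None of the 31 genes tested was called by edgeR's quasi-likelihood test, where 1.07% of all genes were called higher and 1.41% lower, and none was called with DESeq2. At an unadjusted p below 0.05 there were 6 of the 31, against 14.2% of all genes. They were Ldha (-0.48, SE 0.16), Pfkfb4 (-0.57, SE 0.22), Pgk1 (-0.36, SE 0.14), Pgam1 (-0.34, SE 0.12) and Tpi1 (-0.33, SE 0.12), each with a smaller rise in RaptorKOs, and Pfkfb3 (0.37, SE 0.15). The adjusted p of these was 0.145 to 0.272. Of the 31 estimates 19 lay below 0, with a median of -0.15 against -0.01 over all genes. Passing in one genotype and not in the other, as for Tpi1, Gpi1, Pdk3 or Eno2, is therefore not a shown difference. The genotype and injury comparisons use the same libraries, so their values are not independent.

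Neighboring pathways were described through lists of other genes. In contralateral nerves, 2 of 9 pentose phosphate genes were lower in RaptorKOs, namely Shpk, a sedoheptulose kinase (-1.39, SE 0.14, adjusted p = 0.000173, edgeR quasi-likelihood), and the transaldolase Taldo1 (-0.48). Shpk was lower in injured nerves too (-1.01) and was the 1 gene called of 10. Gpd1, the cytosolic glycerol 3-phosphate dehydrogenase, was lower on both sides (-0.54 and -0.76), as 1 of 8 and 1 of 7 genes of gluconeogenesis and the glycerol shuttle. Of 6 other transporters, the inositol transporter Slc5a3 was lower (-0.53) in contralateral nerves and no other was called, and none of 10 was called by edgeR in injured nerves (1 at an unadjusted p below 0.05). Pcx, pyruvate carboxylase, was lower in injured nerves (-0.68), as the 1 of 18 genes of the citrate cycle list. By genotype, edgeR called no gene on either side for pyruvate entry into mitochondria (9 tested, with 4 and 0 at an unadjusted p below 0.05 in contralateral and injured nerves), glycogen (15 tested, 3 and 2) or further glycolytic enzymes (7 and 8 tested, 1 and 1). Over all tested genes, 24.9% in contralateral and 21.5% in injured nerves had an unadjusted p below 0.05.

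Of the HIF regulators, 1 of 9 was lower in contralateral nerves, the prolyl hydroxylase Egln1 (-0.40). In injured nerves Epas1, which encodes HIF2A and is known from endothelium, was higher (0.80) and Arnt2 lower (-0.37). Of 14 HIF target genes outside glycolysis, 3 were lower in contralateral nerves, namely Hmox1 (-0.67), Higd1a (-0.60) and Bnip3l (-0.45). In injured nerves edgeR called none of 14, and 2 had an unadjusted p below 0.05, against 21.5% of all tested genes. Of the 14, 13 lay below 0, and the median was -0.15 against 0.00 over all tested genes. Myc, a transcription factor known to act on glycolytic genes, was higher in injured RaptorKOs (0.83, SE 0.12, adjusted p = 0.00177, edgeR quasi-likelihood) and rose with injury in both genotypes (2.36 and 2.79). No gene of these pathway lists had an interaction called by edgeR. An unadjusted p below 0.05 was found for 0 to 3 genes per list, against 14.2% of all tested genes.

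With injury, 1 of 14 HIF targets outside glycolysis rose and 7 fell in controls (median -0.36). In RaptorKOs 6 of 14 fell (-0.19). These were also the 6 with an unadjusted p below 0.05 in edgeR, against 63.6% of all tested genes. Of 8 further glycolytic enzymes 6 rose and none fell in each genotype, and of the pentose phosphate genes 5 rose and 2 fell in each. The citrate cycle list was divided, with 5 rises and 3 falls among 18 in controls and 4 and 2 in RaptorKOs. Over all tested genes, 32.4% rose and 32.9% fell in controls, and 30.5% rose and 28.5% fell in RaptorKOs, so the citrate cycle genes passed no more often than genes in general.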

How the data were processed

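The data are 13 RNA-seq libraries of mouse sciatic nerve. The authors prepared them with a TruSeq kit, trimmed the reads with Trimmomatic, used GRCm38 and estimated gene levels with RSEM 1.2.22, which shares out reads between similar genes, so 24.9% to 27.9% of the nonzero values per library are not whole. The deposited expected counts were rounded to whole numbers and not otherwise changed. Whether strand was used in counting is not stated. Positions and exon lengths are from GENCODE M21. Depth was 8200458 to 13581775 counts per library.

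Groups were taken from the sample labels. R 4.3.3 with edgeR 4.0.16 and limma 3.58.1 was used for the quasi-likelihood test after TMM scaling, fitted on all genes with 50 counts in at least 2 libraries of a comparison, with Benjamini-Hochberg adjustment over all of them. DESeq2 1.42.0, the exact test of edgeR, other scalings, no filter, a replicate block and leaving out libraries were alternatives. The study used no block, so none entered the main fits. Crushed and contralateral nerves share numbers in the titles, and both control nerves numbered 3 held Xist. Same-numbered nerves of 1 genotype deviated together with r of -0.025 to 0.306, above that of any other number in 4 of 6 pairs. Between genotypes the numbers join different mice, and r was -0.087 to 0.325 there. Its highest value, for contralateral nerves numbered 3, was above that of every same-genotype pair, so r alone does not mark pairs. The quasi-likelihood test weighs a group difference against the spread between libraries, with information on spread shared across genes. Its main fits treated all nerves as independent, including those probably from the same mouse. Isoform ratios were left out where a gene had fewer than 10 counts, and tested by two-sided exact permutation. All tests were tried on simulated data. Figures were drawn with matplotlib 3.10.9.

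The 32 genes and all lists were chosen with earlier results of these data known. Library values were given for genes called by genotype or interaction, the 4 largest rises and falls with injury in controls, and Gapdh, Hif1a, Slc2a1 and Slc16a1. From pathway lists, up to 4 genes with the smallest p among those called by genotype were named. Some genes of the marker and pathway lists are not reported here and were left out of the list counts and sums.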

Additional observations from a re-analysis of the deposited data

Results flagged for a closer look

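The group of 4 contralateral RaptorKO nerves was examined for single libraries far from the rest, by Dixon's criterion, and groups of 3 were not. Chance flags about 1 in 20 groups. Of 30 genes, 2 were picked out, both in RaptorKO contralateral 2. Pgam1 was at 83.8 CPM there and at 71.9 to 73.6 CPM in the other 3, and Pfkfb4 was at 15.6 CPM there and at 11.6 to 12.1 CPM in the others. Neither gene was called in a genotype comparison.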

How the results depend on the processing

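In contralateral nerves 2 genes were called higher with DESeq2 and with a replicate block, against 1, and leaving out 1 library gave 1 to 2 higher and 2 to 5 lower. There were 2 lower without control contralateral 2, and 2 higher and 5 lower without RaptorKO contralateral 4. In injured nerves 4 genes were lower with DESeq2 and with the exact test, 5 with all 13 libraries in 1 fit and 1 with a replicate block, against 2, and 0 to 2 when 1 library was left out (0 without control injured 2). The cause was not tested. In both genotype comparisons the replicate block joins different mice by number. The numbers of rises and falls with injury stayed within 1.5 times under every alternative run, also without both control libraries numbered 3 (14 and 11), an alternative chosen after seeing the data. In RaptorKOs with injury, calls of Pdk1, Egln3 and Eno2 were lost in 5, 4 and 2 alternatives. No call changed its direction, and no gene had a called interaction in any fit. Without TMM scaling the median of all genes was 0.20 with injury in controls and 0.19 in RaptorKOs. Without RaptorKO injured 3, 5 isoform ratios instead of 3 did not overlap between injured genotypes. With the nerve number as a replicate block, 13 genes rose and 11 fell in controls and 14 rose and 12 fell in RaptorKOs, where Eno1 was added, and the block changed no other injury or interaction call. Genes below 50 counts, such as Pfkfb1, were beyond the depth.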
